A study of Mus musculus with 6 samples.

Results

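Lysosomal degradation and acid secretion were examined through 43 genes that encode subunits of the vacuolar proton pump, ion channels and trafficking proteins of acid secretion, lysosomal membrane proteins, cathepsins, and other lysosomal hydrolases and lipid-handling proteins. They were taken by gene symbol from a deposited table of 54532 genes, and each symbol matched 1 row. Their transcripts had been sequenced from cells of the tibia marrow that carry CD11b, taken from mice aged 12 weeks. Libraries labelled Tshr-/- (3) stand for mice that lack the receptor of thyroid-stimulating hormone, and libraries labelled Tshr+/+ (3) for wild-type mice. All cells had been purified by positive selection for CD11b, an integrin chain of neutrophils, monocytes and macrophages. The labels call the mutants a knockdown in another field, do not say which part of Tshr is removed, and name osteoclast differentiation as treatment without a time or a culture step. Strain and sex are not in the labels, and neither is whether each numbered library came from its own animal, so p-values measure the spread between these libraries, which may be technical.

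The vacuolar proton pump is a rotary machine that uses ATP to move protons across membranes. Its cytosolic V1 part hydrolyses ATP, and its V0 part, which lies in the membrane, carries the protons. In most cells the pump acidifies lysosomes, where cathepsins and glycosidases break down proteins, sugars and lipids. Osteoclasts, which arise from CD11b-positive precursors, send the same pump to the membrane that faces bone, and the acid and proteases released there dissolve mineral and collagen.

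The libraries held 14698126 to 17976477 fragments. Values are FPKM, fragments scaled to gene length and to library size, as deposited. Itgam, which encodes CD11b itself, had 106, 134 and 87.4 FPKM in Tshr-/- 1, 2 and 3, against 111, 125 and 114 FPKM in Tshr+/+ 1, 2 and 3. The neutrophil genes S100a8, S100a9, Mpo, Elane, Ltf, Camp, Ngp and Cxcr2 were present in every library, with a summed level of 88928 to 134350 FPKM in Tshr-/- and 108831 to 132618 FPKM in Tshr+/+. Of 8 osteoclast markers, 4 (Calcr, Dcstamp, Ocstamp and Oscar) averaged under 1 FPKM, and the summed level of all 8 was 844 to 1505 FPKM in Tshr-/- and 1035 to 1141 FPKM in Tshr+/+, most of it from Mmp9, which neutrophils also express. Tshr had 0.414, 0.297 and 0.00825 FPKM in Tshr-/- 1, 2 and 3, against 0.537, 0.552 and 0.405 FPKM in Tshr+/+ 1, 2 and 3. The library labelled Tshr-/- 3 alone was nearly empty of Tshr, so every direction below is that of the labels. Tshr differed by -0.258 FPKM on average, which an exact permutation test over the labels did not call (two-sided p = 0.2; this design cannot go below 0.1).

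None of the 43 genes was called different between the genotypes. Of these, 42 passed the filter of at least 1 FPKM in at least 3 libraries and were tested, among 10913 genes, on the scale log2(FPKM + 1) with limma. The exception was Atp6v0d2. No member was called higher and none lower at an adjusted p under 0.05, as in the whole table, where 0% of 10913 genes were called higher and 0% lower (smallest adjusted p of a member in limma 0.9997). At an unadjusted p under 0.05 in limma stood 0 members and 2.9% of all genes tested. Fitted as whole fragments with voom, 0 of 43 members were called. Leaving out Tshr-/- 3 gave 2 calls over the whole table, and leaving out both libraries numbered 3 gave 24, with 0 members among them in either fit. The log2 fold change, Tshr-/- over Tshr+/+, was below 0 for 27 of 42 members and above 0 for 15, with a median of -0.048, while 52.9% of all genes tested were below 0 with a median of -0.011. The share below 0 depends on the scaling: with rescaling to equal totals 20 of 42 were below 0, and the median was 0.0027. The median of all genes tested rose as well under that scaling, to 0.034. The median spread between libraries of a genotype was 0.177 for the members and 0.178 for all genes with a mean of at least 5 FPKM (SD on the log2 scale).

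The intervals set a bound on the size of change that these libraries allow. For 36 of 42 members the 95% interval of the log2 fold change lay within a 1.5-fold change in either direction, against 66.6% of all genes tested. The 6 members with a wider interval were Atp6v1e1, Atp6v0a1, Atp6ap2, Ctsd, Ctsl and Ctss. The interval of Atp6v1e1 alone went past a 2-fold change, with a lower bound of -1.03. In bulk samples such as these, fewer cells of a type and less RNA per cell cannot be told apart.

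**Figure D1:**
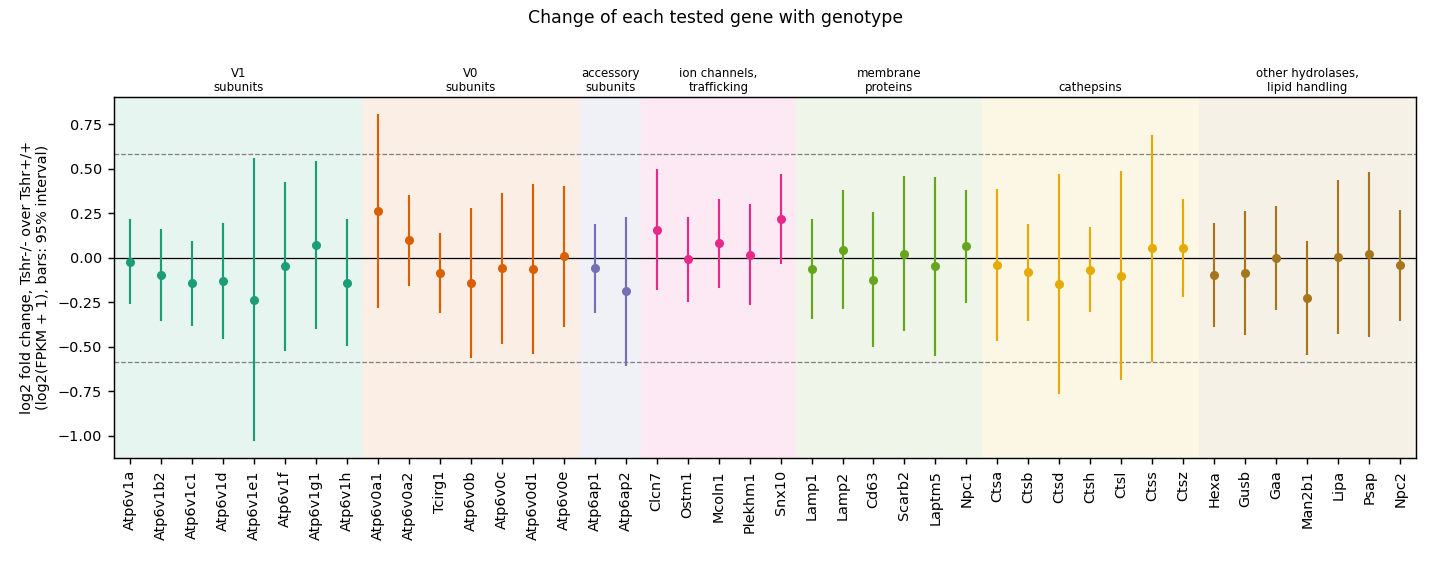
Log2 fold change, Tshr-/- over Tshr+/+, of the 42 tested genes on the log2(FPKM + 1) scale. Points are limma estimates, bars are 95% intervals, colours and shading mark the role, and dashed lines mark a 1.5-fold change; every interval includes 0, and 36 of 42 stay between the dashed lines.

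Many lysosomal genes are known to carry an E-box motif, the CLEAR element, at their start sites, through which the transcription factor TFEB and its relatives act. The promoters of the members were therefore searched for TCACGTGA, the core of that element, and for CACGTG, the E-box within it. Each is its own reverse complement, so that both strands are covered, and every match of the longer motif also holds the shorter. RefSeq promoters of GRCm38.p6, 250 bases before to 50 after a start site, were found for 34 of 43 members, some with several start sites. The longer motif stood in 7 of 34, or 20.6%, against 1.12% of all 27025 gene symbols with a promoter and 2.45% of 7580 among the genes tested. The E-box stood in 11 of 34, or 32.4%, against 8.09% of all symbols and 12.4% of those tested. As the motif is known from lysosomal genes, a higher share among lysosomal members was to be looked for and is not separate evidence. A symbol counted when any of its start sites matched, and the number of start sites per symbol was not compared with the background. These are shares of letters in a window and not binding sites. The stretches that hold the longer motif are printed 5′ to 3′ on the gene's strand, with the motif in capitals and 20 bases on either side. The capitals are the same in all because they were searched for, while the bases beside them differ between genes.
Atp6v1a, chr16:44139364-44139411, minus strand: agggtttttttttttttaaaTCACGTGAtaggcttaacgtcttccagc
Atp6v0d1, chr8:105566041-105566088, minus strand: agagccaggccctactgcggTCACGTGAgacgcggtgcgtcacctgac
Atp6v0e, chr17:26676378-26676425, plus strand: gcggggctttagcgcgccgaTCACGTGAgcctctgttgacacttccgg
Clcn7, chr17:25133377-25133424, plus strand: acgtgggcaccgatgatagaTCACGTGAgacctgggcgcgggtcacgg
Ctsa, chr2:164833740-164833787, plus strand: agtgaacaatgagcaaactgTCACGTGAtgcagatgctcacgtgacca
Ctsa, chr2:164833757-164833804, plus strand: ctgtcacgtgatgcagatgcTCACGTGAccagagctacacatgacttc
Ctsd, chr7:142387899-142387946, minus strand: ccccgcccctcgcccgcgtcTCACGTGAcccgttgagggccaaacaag
The promoter of Mcoln1, which encodes a calcium channel of the lysosome, is shown whole as the setting of such a site, with the longer motif in capitals.
Mcoln1, chr8:3500269-3500568, plus strand: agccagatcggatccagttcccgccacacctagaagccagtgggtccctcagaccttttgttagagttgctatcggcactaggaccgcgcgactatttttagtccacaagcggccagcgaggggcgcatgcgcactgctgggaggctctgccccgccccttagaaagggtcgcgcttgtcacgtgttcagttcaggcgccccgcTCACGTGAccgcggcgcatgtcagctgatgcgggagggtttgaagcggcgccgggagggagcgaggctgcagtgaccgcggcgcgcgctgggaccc
Counted from the start site, the motif began at -4 in Atp6v0d1, 3 in Atp6v0e, 7 in Clcn7, -46 in Mcoln1, -99 in Ctsd and -132 in Atp6v1a. Ctsa, the protective protein and carboxypeptidase of the lysosome, held 2 matches, at -13 and 5, and the stretches printed for it overlap. The 7 genes with the motif belong to the pump, the channels and the cathepsins, and none of 7 other hydrolases and none of 5 membrane proteins with a promoter held it. Their log2 fold changes lay between -0.15 (Ctsd) and 0.16 (Clcn7).

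The V1 subunits, which form the ATP-driven head of the pump, gave no call between the genotypes. Among 8 genes, 7 had a log2 fold change below 0 and 1 above 0, with a median of -0.113. The most abundant, Atp6v1g1, encodes a subunit of the stalk and had 129, 140.1 and 84.7 FPKM in Tshr-/- 1, 2 and 3, against 108, 119.5 and 102 FPKM in Tshr+/+ 1, 2 and 3. The least abundant, Atp6v1h, encodes a regulatory subunit and had 4.73, 4.13 and 3.55 FPKM in the Tshr-/- libraries, against 5.09, 5.17 and 3.77 FPKM in the Tshr+/+ libraries. In both genes the library numbered 3 was the lowest of its genotype, and the genotypes overlapped. Levels are per base of gene length, and a long gene model such as that of Atp6v1h, 9746 bases, lowers its FPKM.

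Atp6v1e1, which encodes another subunit of the stalk, had the largest change of the V1 genes (ENSMUSG00000019210, chromosome 6, 120794305 to 120822793, minus strand, GRCm38). It had 65.2, 69.8 and 36.9 FPKM in Tshr-/- 1, 2 and 3, against 78.4, 83.8 and 41.99 FPKM in Tshr+/+ 1, 2 and 3. Both libraries numbered 3 lay far below the other 4, and the genotypes overlapped. Its log2 fold change was -0.24 ± 0.34 (SE) with a 95% interval of -1.03 to 0.56 and did not pass (limma adjusted p = 0.9997). Its highest library was 2.27 times its lowest. Between libraries of the same number, which the labels do not pair, Atp6v1e1 was lower in Tshr-/- in each of 3 pairs. The same held for Atp6v1c1, Atp6v1d and Atp6v1h, but not for Atp6v1a, Atp6v1b2, Atp6v1f and Atp6v1g1. How many genes of the whole table did so was not counted, so this order cannot be read as a trait of the V1 genes. The log2 fold change of Atp6v1e1 was -0.26 without both libraries numbered 3. It was 0.050 without Tshr-/- 3 alone, a fit that keeps the low Tshr+/+ 3.

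The other V1 subunits varied less between libraries. Atp6v1a, the catalytic subunit that splits ATP, had 23.6 to 27.7 FPKM over the 6 libraries, and its partner in the head, Atp6v1b2, had 50.9, 56.4 and 47.6 FPKM in Tshr-/- 1, 2 and 3, against 51.96, 56.1 and 57.6 FPKM in Tshr+/+ 1, 2 and 3. Atp6v1c1, a subunit that takes part when the 2 parts of the pump join, had 8.57, 9.37 and 8.53 FPKM in Tshr-/- 1, 2 and 3, against 10.5, 9.96 and 9.18 FPKM in Tshr+/+ 1, 2 and 3, and its log2 fold change was -0.14 ± 0.10 (SE). Atp6v1d, part of the central rotor, ranged over 15.8 to 21.7 FPKM and Atp6v1f, its companion in the rotor, over 50.7 to 84.5 FPKM. None of these passed.

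The V0 subunits, which make the proton path, had 4 tested genes below and 3 above 0, with a median log2 fold change of -0.060. The most abundant was Atp6v0b, a subunit of the rotating ring, with 114, 134 and 88.02 FPKM in Tshr-/- 1, 2 and 3, against 129, 131 and 107 FPKM in Tshr+/+ 1, 2 and 3. Its companion in the ring, Atp6v0c, ranged over 32.3 to 48.4 FPKM. Both were lowest in the library numbered 3 of each genotype. Exon bases of Atp6v0b overlap another annotated gene on the opposite strand over 11.8% of their length. A processed pseudogene, Atp6v0c-ps2, was listed at 2.56 to 5.81 FPKM. The sources used here do not say how fragments were divided between such genes.

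Atp6v0a1 showed the largest change of the V0 genes and of all tested members (ENSMUSG00000019302, chromosome 11, 101009452 to 101063719, plus strand). It encodes a form of subunit a, the stator through which protons pass, and had 15.03, 23.3 and 15.3 FPKM in Tshr-/- 1, 2 and 3, against 11.1, 14.5 and 18.6 FPKM in Tshr+/+ 1, 2 and 3. The library Tshr-/- 2 was the highest and Tshr+/+ 3 the next, so that the genotypes overlapped. The log2 fold change of 0.26 ± 0.23 (SE) did not pass (limma adjusted p = 0.9997).

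Atp6v0d2, the form of subunit d known from osteoclasts, where it also takes part in cell fusion, was the least abundant of the 43 genes (ENSMUSG00000028238, chromosome 4, 19876841 to 19922605, minus strand). It had 0.389, 1.16 and 0.420 FPKM in Tshr-/- 1, 2 and 3, against 0.281, 0.156 and 0.537 FPKM in Tshr+/+ 1, 2 and 3. These values rest on 17, 44 and 23 fragments in the Tshr-/- libraries, against 13, 7 and 27 in the Tshr+/+ libraries. The library Tshr-/- 2 was the highest and the genotypes overlapped. In the same library the osteoclast genes Acp5, a phosphatase, and Ctsk, a collagen-degrading protease, had 29.7 and 37.4 FPKM, against 5.12 to 11.8 FPKM of Acp5 and 3.30 to 15.1 FPKM of Ctsk in the other 5 libraries. The part of such cells in the level of Atp6v0d2 or Atp6v0a1 was not tested.

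Several positions of the pump can be filled by products of different genes, and in each of 8 pairs compared a single gene prevailed in all 6 libraries. The form of subunit a encoded by Tcirg1, which osteoclasts need and whose loss causes osteopetrosis, was the main form, with 75.1, 77.8 and 73.7 FPKM in Tshr-/- 1, 2 and 3, against 83.5, 77.8 and 79.1 FPKM in Tshr+/+ 1, 2 and 3. Atp6v0a2, a form known from the Golgi, had 6.06, 5.98 and 6.77 FPKM in Tshr-/- 1, 2 and 3, against 5.37, 5.69 and 6.33 FPKM in Tshr+/+ 1, 2 and 3. The level of Tcirg1 was 3.34 to 7.49 times that of Atp6v0a1 and 10.9 to 15.6 times that of Atp6v0a2 in the same library. The mean log2 ratio was 2.28 ± 0.382 for Tcirg1 over Atp6v0a1 and 3.67 ± 0.168 for Tcirg1 over Atp6v0a2 (SD, n = 6; exact two-sided sign-flip permutation test, adjusted p = 0.03125 each over 8 pairs, the smallest it can give). Levels of Tcirg1 were the steadiest of all members, the highest library at 1.13 times the lowest.

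Atp6v0d1, the widespread form of subunit d, had 111, 123 and 87.1 FPKM in Tshr-/- 1, 2 and 3, against 124, 127 and 85.5 FPKM in Tshr+/+ 1, 2 and 3. This was 106 to 817 times the level of Atp6v0d2 in the same library, and the lowest ratio was that of Tshr-/- 2. Atp6v1g1 was 51.6 to 96.6 times as abundant as Atp6v1g2, a form known from brain, which had 1.34, 1.93 and 1.64 FPKM in the Tshr-/- libraries, against 1.94, 2.19 and 1.79 FPKM in the Tshr+/+ libraries. The forms known from kidney and other tissues were almost absent. Atp6v1b1 had 2 fragments over the 6 libraries, Atp6v1c2 and Atp6v1e2 had 1 each, and Atp6v0e2 had 0. Against a floor of 3 fragments per library, Atp6v1b2 was at least 1156-fold higher than Atp6v1b1, Atp6v1c1 at least 95.2-fold higher than Atp6v1c2, Atp6v1e1 at least 249-fold higher than Atp6v1e2, and Atp6v0e at least 518-fold higher than Atp6v0e2. Atp6v0e itself, a small membrane subunit, had 47.3, 47.02 and 32.4 FPKM in the Tshr-/- libraries, against 42.8, 43.5 and 38.1 FPKM in the Tshr+/+ libraries. The ratios Atp6v0d1 over Atp6v0d2 and Atp6v1g1 over Atp6v1g2 were above 1 in 6 of 6 libraries (adjusted p = 0.03125 each, exact sign-flip permutation test). For the 4 pairs whose second gene had 0 to 2 fragments in all, the sign was fixed by those counts, and only the bounds above are given. The 8 ratios share their libraries and, in part, Tcirg1, so they are not separate lines of evidence.

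**Figure D2:**
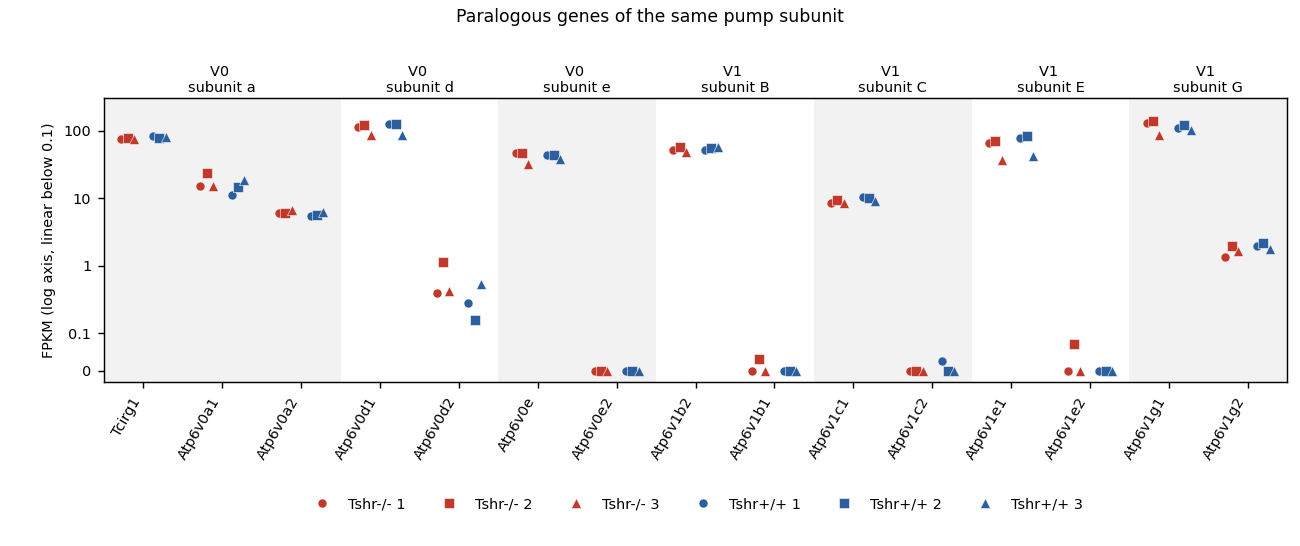
FPKM of paralogous genes of the same pump subunit in each library (log axis, linear below 0.1), with Tshr-/- libraries in red left of Tshr+/+ libraries in blue and the library number as symbol. In each subunit the first gene stands above the others in all 6 libraries, and Atp6v0e2 is at 0 throughout.

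The accessory subunits Atp6ap1 and Atp6ap2 guide assembly of the pump, and Atp6ap2 is also known as the prorenin receptor. Atp6ap1 had 72.97, 77.9 and 68.4 FPKM in Tshr-/- 1, 2 and 3, against 78.7, 78.9 and 71.02 FPKM in Tshr+/+ 1, 2 and 3. Atp6ap2 had 63.3, 64.8 and 51.6 FPKM in Tshr-/- 1, 2 and 3, against 78.01, 75.5 and 53.5 FPKM in Tshr+/+ 1, 2 and 3 (chromosome X, 12587801 to 12617049, plus strand). Both were lowest in the library numbered 3 of each genotype, and both overlapped between genotypes. The log2 fold change of Atp6ap2 was -0.19 ± 0.18 (SE) (limma adjusted p = 0.9997).

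Among the channels and trafficking genes, Snx10 was the only member of the 43 whose groups did not overlap (ENSMUSG00000038301, chromosome 6, 51523901 to 51590679, plus strand). It encodes a sorting nexin that osteoclasts need to form the resorbing membrane, and its loss causes osteopetrosis. It had 8.66, 8.12 and 8.13 FPKM in Tshr-/- 1, 2 and 3, against 7.04, 6.34 and 7.70 FPKM in Tshr+/+ 1, 2 and 3. All Tshr-/- libraries stood above all Tshr+/+ libraries, and the gap between Tshr-/- 2 and Tshr+/+ 3 was small. The log2 fold change of 0.22 ± 0.11 (SE), 95% interval -0.037 to 0.47, did not pass (limma adjusted p = 0.9997, unadjusted p = 0.0833). With 1 of 42 tested members higher without overlap and 0 lower, the members lay near the background, where 3.23% of all genes tested were higher and 3.55% lower without overlap.

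The other genes of acid secretion and vesicle traffic overlapped between the genotypes. Plekhm1, an adaptor of late endosomes that is also mutated in osteopetrosis, was the most abundant with 18.7, 24.03 and 19.8 FPKM in Tshr-/- 1, 2 and 3, against 20.3, 20.4 and 20.7 FPKM in Tshr+/+ 1, 2 and 3. Mcoln1 was the least abundant with 4.06, 4.63 and 4.79 FPKM in the Tshr-/- libraries, against 4.23, 4.02 and 4.29 FPKM in the Tshr+/+ libraries. Clcn7, the exchanger that brings chloride into the lysosome, had 5.89, 6.35 and 7.70 FPKM in the Tshr-/- libraries, against 5.85, 4.997 and 6.71 FPKM in the Tshr+/+ libraries, and its partner subunit Ostm1 had 6.30, 7.16 and 7.04 FPKM in the Tshr-/- libraries, against 6.96, 7.17 and 6.52 FPKM in the Tshr+/+ libraries. Log2 fold changes of these 4 lay between -0.0093 and 0.16.

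**Figure D3:**
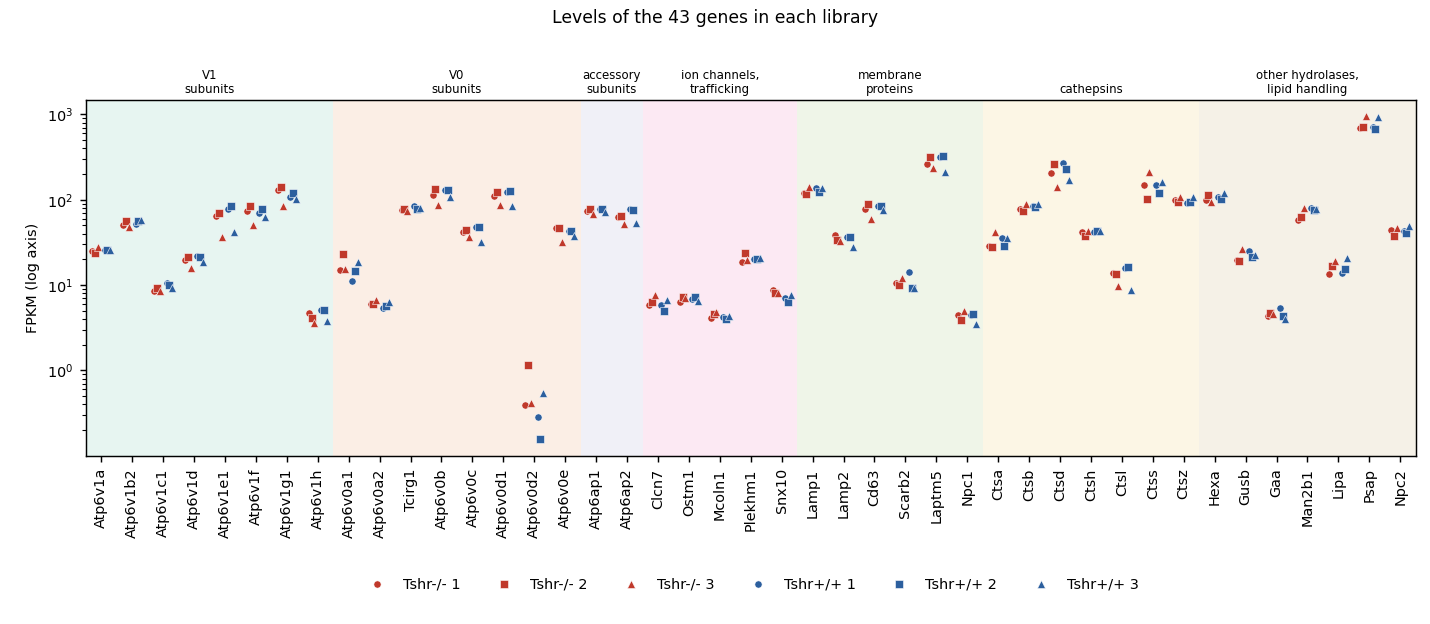
FPKM of the 43 genes in each library on a log axis, grouped by role, with Tshr-/- libraries in red left of Tshr+/+ libraries in blue and the library number as symbol. Psap is the most and Atp6v0d2 the least abundant gene, and the genotypes overlap in all genes but Snx10.

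Lysosomal membrane proteins had 3 genes below and 3 above 0, with a median log2 fold change of -0.013. Laptm5, a lysosomal protein of blood cells, was the most abundant with 263, 321 and 237 FPKM in Tshr-/- 1, 2 and 3, against 320.05, 330.3 and 210.2 FPKM in Tshr+/+ 1, 2 and 3. Npc1, which exports cholesterol from the lysosome, was the least abundant with 4.46, 3.89 and 4.93 FPKM in the Tshr-/- libraries, against 4.43, 4.63 and 3.54 FPKM in the Tshr+/+ libraries. Cd63, a tetraspanin of late endosomes and of granules, had the largest change of this role (chromosome 10, 128900989 to 128912822, plus strand) and 78.1, 88.3 and 59.9 FPKM in Tshr-/- 1, 2 and 3, against 85.5, 83.5 and 75.1 FPKM in Tshr+/+ 1, 2 and 3. Its log2 fold change was -0.12 ± 0.16 (SE) (limma adjusted p = 0.9997), and Tshr-/- 3 was the lowest library. Without Tshr-/- 3 the value was 0.031. A pseudogene, Cd63-ps, was listed at 32.2 to 43.9 FPKM, so fragments of Cd63 may have been divided. Of the remaining genes, Lamp1 ranged over 117 to 141 FPKM, Lamp2 over 28.2 to 38.6 FPKM and Scarb2, the receptor that carries glucocerebrosidase to lysosomes, over 9.19 to 14.4 FPKM. The highest Scarb2 value was that of Tshr+/+ 1.

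Cathepsins, the proteases of the lysosome, had 5 genes below and 2 above 0, with a median log2 fold change of -0.068. Ctsd, an aspartic protease, was the most abundant and had the largest change (ENSMUSG00000007891, chromosome 7, 142375911 to 142388038, minus strand). It had 204, 259.7 and 142 FPKM in Tshr-/- 1, 2 and 3, against 267, 228 and 168 FPKM in Tshr+/+ 1, 2 and 3. Both libraries numbered 3 were the lowest of their genotype, and Tshr-/- 2 stood near the top of the Tshr+/+ values. Between genotypes the log2 fold change was -0.15 ± 0.26 (SE) (limma adjusted p = 0.9997). It was 0.084 without Tshr-/- 3 and 0.0014 without Tshr+/+ 1. A gene annotated on the same strand shares 34.4% of the exon bases of Ctsd, so its fragments are uncertain.

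Ctsl, a cysteine protease, was the least abundant cathepsin with 14.01, 13.4 and 9.80 FPKM in Tshr-/- 1, 2 and 3, against 15.7, 16.4 and 8.87 FPKM in Tshr+/+ 1, 2 and 3, again lowest in both libraries numbered 3. Other annotated genes share 26.8% of its exon bases on the opposite strand and 6.09% on the same strand. Ctss, the protease that trims the invariant chain in antigen-presenting cells, moved the other way between libraries, with 149.9, 102 and 213 FPKM in Tshr-/- 1, 2 and 3, against 151, 121 and 159.9 FPKM in Tshr+/+ 1, 2 and 3. Here both libraries numbered 3 were the highest of their genotype. Ctsb had 74.6 to 90.4 FPKM over the 6 libraries, Ctsz 91.1 to 109, Ctsh 37.3 to 43.2 and Ctsa 28.2 to 41.6 FPKM. These 4 genes were also highest in both libraries numbered 3.

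The other hydrolases and lipid-handling genes had 5 members below and 2 above 0, with a median log2 fold change of -0.043. Psap, the precursor of the saposins that present lipids to hydrolases, was the most abundant of the 43 genes with 691, 707 and 959 FPKM in Tshr-/- 1, 2 and 3, against 720.5, 667 and 938 FPKM in Tshr+/+ 1, 2 and 3. Gaa, the glycogen-degrading glucosidase, was the least abundant of this role with 4.39, 4.67 and 4.53 FPKM in the Tshr-/- libraries, against 5.36, 4.29 and 4.05 FPKM in the Tshr+/+ libraries. In Psap both libraries numbered 3 were the highest, while in Gaa the 6 values lay close together. Man2b1, a mannosidase that trims glycoproteins, had the largest change (chromosome 8, 85083270 to 85098282, plus strand) and 58.3, 62.7 and 79.1 FPKM in Tshr-/- 1, 2 and 3, against 79.7, 75.3 and 77.5 FPKM in Tshr+/+ 1, 2 and 3. The libraries Tshr-/- 1 and 2 lay below all Tshr+/+ libraries, and Tshr-/- 3 lay among them. With all libraries its log2 fold change was -0.22 ± 0.14 (SE) (limma adjusted p = 0.9997). It was 0.029 when Tshr-/- 3 alone stood for the mutants. Hexa, a subunit of hexosaminidase, ranged over 94.6 to 119.97 FPKM, Gusb, the glucuronidase, over 19.2 to 26.4, Lipa, the acid lipase, over 13.6 to 20.5, and Npc2, the soluble partner of Npc1, over 37.6 to 49.4 FPKM.

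The libraries numbered 3 stood apart in both genotypes, low in most pump subunits and high in many hydrolases. The library numbered 3 was the lowest of its genotype in both genotypes for 17 of 42 tested members, against 24.2% of all genes tested, and the highest in both for 11 of 42, against 22% of all genes tested. Of 17 tested pump subunits, 12 were lowest in both libraries numbered 3, and Atp6v0a2 alone was highest in both. Of 14 cathepsins and other hydrolases, 8 were highest in both (Ctsa, Ctsb, Ctsh, Ctss, Ctsz, Lipa, Psap and Npc2) and 2 were lowest (Ctsd and Ctsl). This grouping was made after the values were seen, the labels do not say what a number shares, and the counts are a description without a test.

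The medians per library describe the same values in another form and add no separate support. Relative to the Tshr+/+ mean, the median log2 deviation of the V1 subunits was -0.021, 0.039 and -0.336 in Tshr-/- 1, 2 and 3, against 0.040, 0.094 and -0.120 in Tshr+/+ 1, 2 and 3. That of the V0 subunits was 0.0066, 0.14 and -0.198 in Tshr-/- 1, 2 and 3, against 0.059, 0.070 and -0.116 in Tshr+/+ 1, 2 and 3. Both medians were thus low in the libraries numbered 3 and lower in that of Tshr-/-. Not every subunit followed: Atp6v1a, Atp6v0a2, Atp6v0c and Atp6v0d1 were higher in Tshr-/- 3 than in Tshr+/+ 3. The library size behind the FPKM, relative to depth, was highest in the libraries numbered 3, and its part in these medians was not tested. For the other hydrolases and lipid-handling genes the medians were -0.152, -0.116 and 0.083 in Tshr-/- 1, 2 and 3, against -0.026, -0.106 and 0.135 in Tshr+/+ 1, 2 and 3. Membrane proteins did not share a direction in the libraries numbered 3, with a median of 0.026 in Tshr-/- 3 and -0.196 in Tshr+/+ 3. The median of all genes tested stayed between -0.013 and 0.0060 in all 6 libraries.

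Summed levels of markers of the cells in the selection differed by library number too. The summed level of 8 neutrophil markers was 123963, 134350 and 88928 FPKM in Tshr-/- 1, 2 and 3, against 115324, 132618 and 108831 FPKM in Tshr+/+ 1, 2 and 3. That of 6 monocyte markers (Csf1r, Ccr2, Ly6c2, Cx3cr1, Fn1 and F13a1) was 646, 536 and 656 FPKM in Tshr-/- 1, 2 and 3, against 511, 529 and 587 FPKM in Tshr+/+ 1, 2 and 3. The neutrophil sum was thus lowest and the monocyte sum highest in the library numbered 3 of each genotype. In Tshr-/- the monocyte sums of libraries 1 and 3 lay close together. Most of the monocyte sum came from Ly6c2, with 478, 416 and 378 FPKM in Tshr-/- 1, 2 and 3, against 353, 394 and 379 FPKM in Tshr+/+ 1, 2 and 3. Ly6c2 was thus highest in neither library numbered 3 and lowest in that of Tshr-/-. Most of the neutrophil sum came from S100a8, S100a9, Ngp and Camp. Of single markers, 3 of 8 for neutrophils were lowest in both, against 24.2% of all genes tested. Mpo, Elane and Cxcr2 were instead the highest in Tshr+/+ 3 among the Tshr+/+ libraries. For monocytes, 5 of 6 were highest in both, against 22% of all genes tested. Of the resident macrophage markers, 4 of 7 tested were highest in both libraries numbered 3, again against 22% of all genes tested. The summed level of the macrophage markers was 85.5 to 130.3 FPKM in Tshr-/- and 104 to 135 FPKM in Tshr+/+. The part of all these cells in the levels of the pump and of the hydrolases was not tested.

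**Figure D4:**
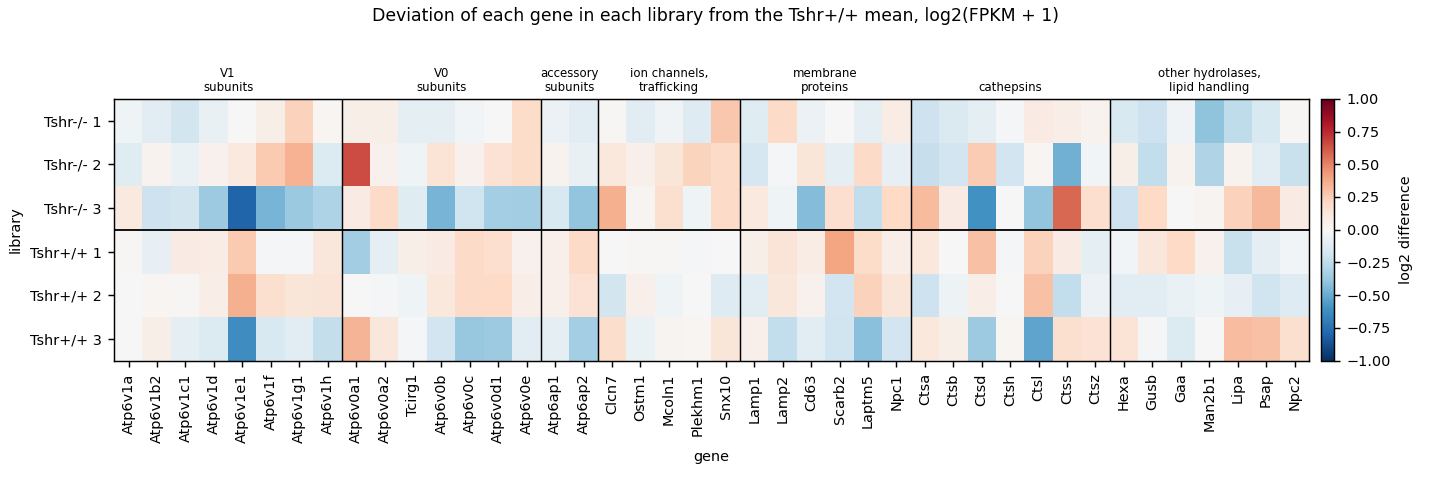
Difference of each of the 42 tested genes from its Tshr+/+ mean on the log2(FPKM + 1) scale, with libraries as rows (Tshr-/- above Tshr+/+) and genes as columns grouped by role. The rows numbered 3 are blue over most pump subunits and red over Ctss, Psap and Lipa in both genotypes.

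**Figure D5:**
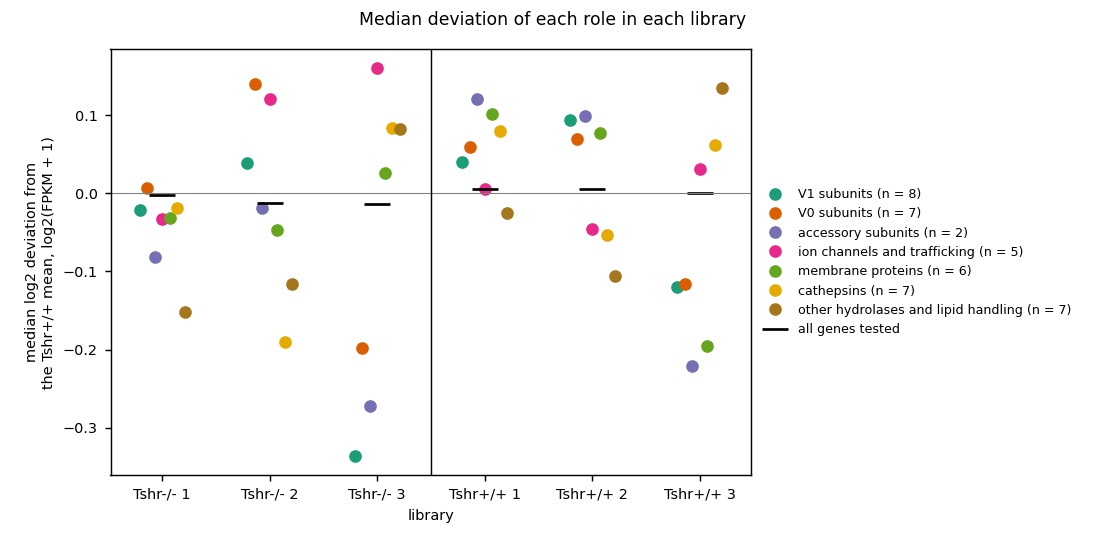
Median log2 deviation from the Tshr+/+ mean of the genes of each role in each library, with Tshr-/- libraries left of Tshr+/+ libraries and black dashes for all genes tested. In both libraries numbered 3 the V1, V0 and accessory subunits lie below 0 and the cathepsins and other hydrolases above 0.

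The 7 genes with the TCACGTGA motif did not share a direction in this pattern. Of them 3 (Atp6v0d1, Atp6v0e and Ctsd) were lowest and 3 (Clcn7, Ctsa and Mcoln1) highest in both libraries numbered 3, and Atp6v1a was neither.

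Other genes of the same organelle were also without a call. Of 17 further genes of pump subunits and assembly 9 were tested, 4 above and 5 below 0 with a median log2 fold change of -0.116, and the smallest p was that of Rogdi, a partner of the pump, at -0.28 ± 0.12 (SE). Of 34 other lysosomal hydrolases 33 were tested, 18 above and 15 below 0 with a median of 0.039, and Ctsw, a cathepsin of cytotoxic lymphocytes, had the smallest p at 0.37 ± 0.17 (SE). Sorting by mannose 6-phosphate, the tag that brings enzymes to lysosomes, had 9 tested genes, 5 above and 4 below 0 with a median of 0.020, and Gnptg, a subunit of the tagging enzyme, stood at -0.14 ± 0.11 (SE). Of 19 other lysosomal transporters and membrane proteins 17 were tested, 4 above and 13 below 0 with a median of -0.086, and Tmem192 stood at -0.20 ± 0.12 (SE). Of the 17 tested genes in this list, 1 (Clcn3) was lower without overlap, against 3.55% of all genes tested. No tested gene of the other lists in this paragraph had groups that did not overlap. Clcn3 had 1.32, 1.43 and 1.41 FPKM in the Tshr-/- libraries, against 1.52, 1.78 and 1.59 FPKM in the Tshr+/+ libraries. Mfsd8, which did not pass the filter, did not overlap either, with 0.878, 0.894 and 0.775 FPKM in the Tshr-/- libraries, against 1.09, 0.968 and 1.10 FPKM in the Tshr+/+ libraries. Both were picked out because of these values. The 17 genes of lysosome biogenesis control, which include Tfeb itself, had 7 above and 10 below 0 with a median of -0.018, and Rragc, a GTPase that recruits mTORC1 to lysosomes, stood at -0.23 ± 0.12 (SE). In these 5 lists limma called 0 genes at an adjusted p under 0.05 and 0 at an unadjusted p under 0.05.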

How the data were processed

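RNA from 3 Tshr-/- and 3 Tshr+/+ libraries of CD11b-positive bone marrow cells had been sequenced, per the labels, after a SMARTer mRNA library kit. The authors deposited FPKM per gene with gene length and position. The submitters' processing notes name the builds GRCm38 and mm10; the aligner, the counting tool and whether strand was used are not given here by any source. Columns headed HO were read as Tshr-/-, the single genotype beside WT. Multiplied by gene length, 100% of values were whole numbers of a fixed unit in each library (tolerance 0.01), so fragments could be computed; depth was 14698126 to 17976477. The library size behind the FPKM was 0.939 to 1.12 times that depth, highest in both libraries numbered 3. Counting error is therefore small for most members, but not for Atp6v0d2.

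Genes with at least 1 FPKM in 3 libraries were fitted as log2(FPKM + 1) by genotype with limma 3.58.1 in R 4.3.3 (empirical Bayes with trend, two-sided, Benjamini-Hochberg over 10913 genes, threshold 0.05). The scale understates changes of low genes. P-values measure the spread between these libraries. The code was tested on simulated data. Ratios of paralogs used a pseudocount of 0.1. Same-numbered libraries of the genotypes deviated together (correlations over genes 0.243, 0.262 and 0.468), but Tshr-/- 1 correlated more with Tshr+/+ 2 (0.344). The labels state no pairing, so the main fit compared the genotypes without a block. A fit with the library number as block was run as an alternative. All pairs of libraries differed by more than counting error (chi-square over its degrees of freedom at least 10.9). Exon overlaps are from GENCODE M21. The strand of the 43 promoters of members was checked against transcripts (40 found in sense, 0 in reverse).

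Values in every library are given for members whose groups did not overlap, for the most and least abundant and the most changed of each role, and for paralog pairs; other lists give the gene with the smallest p. Itgam, Acp5, Ctsk, Clcn7, Ostm1, Ctss, Clcn3 and Mfsd8 stand outside this rule and were added after their values were seen. Members, lists and alternatives were chosen with earlier results of these data known.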

Additional observations from a re-analysis of the deposited data

How the results depend on the processing

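Across 18 alternatives, the count of members past the threshold stayed at 0. Over the whole table, limma called 24 genes with array weights and 24 without both libraries numbered 3, and between 0 and 2 with a library left out. The smallest adjusted p of a member in these fits was 0.0914 with array weights, and the weights were 3.82 for Tshr-/- 1 and 3.15 for Tshr+/+ 2, against 0.247 to 1.25 for the others. The median log2 fold change of the members was 0.0027 with rescaling to equal totals, where that of all genes tested was 0.034. With quantile scaling the members had 0.0011 and all genes tested 0.0027. With a library left out the median of the members lay between -0.063 and -0.0081, and the cause was not tested. With the replicate block the median was -0.048 and the smallest adjusted p of a member 0.827, and the block changed no call.

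Single members changed direction in few alternatives. Man2b1 stood at 0.029 without the libraries labelled Tshr-/- 1 and 2. That fit takes the lone Tshr-/- library to vary like the Tshr+/+ libraries. With a library left out, Atp6v1e1 ranged over -0.55 to 0.050, Cd63 over -0.24 to 0.031 and Ctsd over -0.35 to 0.084. Snx10, Atp6v0a1 and Atp6ap2 kept their direction in all 18, with Snx10 between 0.15 and 0.33. Snx10 was picked because its groups did not overlap, so leaving out libraries or changing the pseudocount could not reverse it. Atp6v0a1 and Atp6ap2 were picked for the largest change of their role. The steady direction of these genes is therefore not support for a difference.

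The difference in Tshr lay between -0.346 and -0.143 FPKM with a library left out. Log2 ratios of the paralogs kept their direction with pseudocounts of 1 and 0.01. With a library left out, 5 libraries cannot give a p under 0.0625, so the test says nothing about stability there. The ratios then lay at 2.16 to 2.39 for Tcirg1 over Atp6v0a1, 3.62 to 3.72 over Atp6v0a2, 7.45 to 7.92 for Atp6v0d1, 8.96 to 9.04 for Atp6v1b2, 6.47 to 6.52 for Atp6v1c1, 8.98 to 9.21 for Atp6v1e1, 5.78 to 5.96 for Atp6v1g1 and 8.66 to 8.77 for Atp6v0e, each over its partner. Values of the last forms depend on the pseudocount. Depth limits Atp6v0d2 alone among the members, with 7 to 44 fragments.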
